A study of Macaca fascicularis with 32 samples.

Results

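Direct pathway spiny projection neurons (SPNs) of the macaque striatum are described here as nuclei chosen by their counts of 5 genes. A barcode of the putamen (PUT) or caudate nucleus (CN) matrices was taken where it held 2000 or more unique molecular identifiers (UMIs, counted RNA molecules), 10 or more UMIs of PDE10A, 2 or more UMIs of TAC1 and EBF1 together, and 0 UMIs of DRD2 and ADORA2A. This gave 3118 nuclei of 37681 striatal barcodes and of 56659 barcodes in all: 907 in PUT CT, 578 in PUT PD, 897 in CN CT and 736 in CN PD. Indirect pathway nuclei, used for comparison, were chosen by the mirrored rule, with 2 or more UMIs of DRD2 and ADORA2A together and 0 of TAC1 and EBF1. They numbered 1406, 1177, 1010 and 1188 in the same order of libraries.

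The striatum sends its output through a pair of SPN classes. Direct pathway SPNs project to the substantia nigra pars reticulata and the internal pallidum, carry the dopamine D1 receptor (DRD1), and release GABA with the peptides substance P (from TAC1) and dynorphin (from PDYN). Indirect pathway SPNs project to the external pallidum and carry the dopamine D2 receptor (DRD2), the adenosine receptor encoded by ADORA2A and enkephalin (from PENK). Dopamine from the substantia nigra raises cyclic AMP signalling in the first class and lowers it in the second, and loss of that dopamine is the hallmark of Parkinson's disease.

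The animals were labelled as cynomolgus macaques (Macaca fascicularis), while the extraction protocol names Macaca mulatta. The species is not resolved here. The PD group had received an adeno-associated virus (AAV) carrying α-synuclein together with poly(ADP-ribose), per the title of the series, and the other group was labelled CT. The AAV promoter, the age of the animals, the site of injection and the treatment of CT are not given in the sources used here. The labels list 8 samples for PUT CT, 4 for PUT PD, 8 for CN CT and 4 for CN PD, but every group was deposited as a single matrix whose barcodes carry no sample name. Each of these matrices counts here as 1 library, which pools an unstated number of animals. Differences between PD and CT libraries have no replicate check, and treatment, animals and library cannot be told apart. Intervals below are exact 95% intervals and cover counting error only.

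The 4 striatal libraries held between 23250580 and 36723856 UMIs. The chosen nuclei had median depths of 5529 UMIs in PUT CT, 5066.5 in PUT PD, 5012 in CN CT and 6268.5 in CN PD, with medians of 2532, 2343.5, 2377 and 2632 genes detected. Together they held 5402363, 3109337, 4728406 and 4982079 UMIs, and levels are given below as CPM, counts scaled to a common total over these sums. Any pair of the 6 matrices shared 14 to 38 barcodes, and 1 barcode of a direct pathway nucleus was shared between libraries. No barcode was removed as a doublet, and between 7.47% and 11.1% of the direct pathway nuclei of a library had a Scrublet doublet score above 0.25.

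The label was checked against genes that the rule did not use. DRD1 itself was hardly counted, at 3.89 CPM in PUT CT, 2.25 in PUT PD, 3.81 in CN CT and 3.41 in CN PD. It was at most 0.19 CPM in indirect nuclei, and 20, 7, 18 and 17 direct nuclei held any DRD1 UMI. In PUT CT this was 2.21% of direct nuclei, against 0.218% of oligodendrocyte-type barcodes, which had a median of 1981.5 UMIs. ISL1, a transcription factor of developing direct pathway neurons, stood at 12.2 CPM in PUT CT, 12.5 in PUT PD, 20.5 in CN CT and 15.2 in CN PD, against no more than 1.41 CPM in indirect nuclei of any library. PDYN was at 2.78 CPM in PUT CT, 4.18 in PUT PD, 24.5 in CN CT and 20.1 in CN PD in direct nuclei, and at 0.384 CPM in PUT CT, 0.164 in PUT PD, 3.61 in CN CT and 2.0 in CN PD in indirect nuclei. SFXN1, a mitochondrial serine carrier, stood at 106, 117, 99.2 and 104 CPM in direct nuclei in the same order, against 80.9, 69.8, 70.8 and 65.5 CPM in indirect nuclei. SFXN1 lies beside DRD1 in the RefSeq annotation described below, and whether reads of one were counted for the other was not tested. DRD1, ISL1, PDYN and SFXN1 were each higher in direct than in indirect nuclei of every library. EYA1, from the same marker list, was at 23.3 CPM in PUT CT, 27.3 in PUT PD, 15.2 in CN CT and 18.3 in CN PD. In indirect nuclei it was at 14.7, 10.8, 15.2 and 14.8 CPM, so it did not separate the classes in CN CT. A further pair of direct pathway markers, CHRM4 and SLC35D3, stayed below 3 CPM in both classes.

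The genes of the rule give a description, since they chose the nuclei. TAC1 was at 253 CPM in PUT CT, 235 in PUT PD, 283 in CN CT and 230.0 in CN PD, and EBF1, a transcription factor needed for the differentiation of these neurons, at 280.1 CPM in PUT CT, 300.4 in PUT PD, 270.5 in CN CT and 184 in CN PD. Between 40.1% and 53.8% of the nuclei of a library held UMIs of both genes. Nuclei chosen by TAC1 alone were 21.7% in PUT CT, 22.3% in PUT PD, 27.4% in CN CT and 37.8% in CN PD. Just inside the rule lay the 401, 302, 464 and 385 nuclei with exactly 2 UMIs of TAC1 and EBF1, and just outside it 544, 472, 709 and 654 with 1 UMI. A further 129, 61, 87 and 65 barcodes were outside for a single DRD2 or ADORA2A UMI. PDE10A, the phosphodiesterase that degrades cyclic nucleotides in SPNs, was at 6440.0 CPM in PUT CT, 7239 in PUT PD, 4319 in CN CT and 4455 in CN PD. In CN CT 123 nuclei had 10 to 12 PDE10A UMIs and 77 otherwise eligible barcodes had 7 to 9, whereas in the other libraries at most 42 and 12 did.

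Pooled over the direct nuclei of a library, most markers of other cell types had low sums. The summed level of 8 oligodendrocyte markers was 772 CPM in PUT CT, 567 in PUT PD, 245 in CN CT and 345 in CN PD. In oligodendrocyte-type barcodes it was 12603 to 16107 CPM. These pooled sums hide an uneven spread over the clusters described below. The same sum was 2544 CPM in a cluster of 189 nuclei, 133 of them from PUT CT and 55 from PUT PD. It was 1209.6 CPM in a cluster of 191 nuclei, and 146.34 to 396.2 CPM in the other clusters. The 6 measured astrocyte markers summed to 1225 to 1376 CPM, of which 1169 CPM in PUT CT, 1245 in PUT PD, 1063 in CN CT and 1121 in CN PD came from SLC4A4, a bicarbonate transporter with a like level in indirect nuclei. Markers of oligodendrocyte precursors, microglia, vessels, lymphocytes and excitatory neurons each summed to less than 41 CPM in every library, and CLDN5, OLIG2, SLC17A6, NEUROD2 and NEUROD6 were at 0 in all 4. The 12 interneuron markers summed to 78.9 CPM in PUT CT, 25.4 in PUT PD, 30.2 in CN CT and 18.1 in CN PD, and CHAT and TH were at 0 in each.

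Few genes differed past 1.5-fold between direct and indirect pathway nuclei in the same direction in all 4 libraries. The counts within single libraries cannot be smaller and are not given here. Since the classes were chosen by opposite markers, these differences describe them and carry no test. Of 7941 genes with 100 or more UMIs over both classes in each library, 21 (0.264%) were at least 1.5-fold higher in direct nuclei in all 4 libraries and 27 (0.34%) at least 1.5-fold lower. RELN, which encodes the secreted guidance protein reelin, was at 424 CPM in PUT CT, 405 in PUT PD, 479.9 in CN CT and 501 in CN PD in direct nuclei, and at 42.3 CPM in PUT CT, 29.8 in PUT PD, 43.3 in CN CT and 53.5 in CN PD in indirect nuclei. ERBB4, a neuregulin receptor, was at 2533 CPM in PUT CT, 2099 in PUT PD, 1733 in CN CT and 1583 in CN PD, against 503, 334, 476 and 404 CPM in indirect nuclei of the same libraries. CNTNAP4, a neurexin-like adhesion protein, was at 280.2, 389, 296 and 341 CPM against 17.6, 44.5, 19.2 and 91 CPM. Each of these genes was well above its indirect level in all 4 libraries, and the levels of the classes did not overlap.

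Among the other named genes higher in direct nuclei, DSCAM, an adhesion molecule of neurite self-avoidance, was at 601, 623, 560.0 and 722 CPM in direct and 162, 142, 177 and 161 CPM in indirect nuclei. TOX, a nuclear HMG-box protein, was at 197, 260.5, 112 and 234 CPM against 25.8, 71.6, 14.8 and 23 CPM. FOXP2, a forkhead transcription factor linked to vocal learning, was at 111, 69.5, 252 and 235 CPM against 8.44, 19, 53 and 33.2 CPM. IL1RAPL2, PRICKLE1, ETV1 and HS6ST3 completed the 10, with direct to indirect ratios between 1.8 and 6.25 over the 4 libraries. Among the listed signalling genes, the kainate receptor subunit GRIK2 was at 3679, 3532, 2933 and 2719 CPM against 1980.0, 1891, 1665 and 1578 CPM. The cannabinoid receptor CNR1 was at 325, 376, 174 and 173 CPM against 194, 197, 75.9 and 75.5 CPM. Both receptors were therefore higher in direct nuclei in each library, and CNR1 was lower in CN than in PUT in both classes.

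Genes lower in direct nuclei included several receptors. GRIK3, another kainate receptor subunit, was at 1.3, 0.965, 1.06 and 0.602 CPM in direct and 42.3, 64.7, 26.8 and 34.2 CPM in indirect nuclei. OPRD1, the delta opioid receptor, was at 2.96, 5.15, 4.65 and 7.23 CPM against 51.9, 55.9, 42.7 and 40.4 CPM. PENK was at 37, 18, 43.1 and 29.3 CPM against 99.8, 64.6, 102 and 106 CPM. A PENK UMI was present in 18.5%, 8.13%, 19.3% and 16.4% of direct nuclei, and in 15.5%, 7.31%, 18.9% and 11.1% of the much shallower oligodendrocyte-type barcodes (median depths 1981.5, 1818, 2599 and 2303 UMIs). The oligodendrocyte-type barcodes numbered 458, 438, 37 and 225. Given these PENK shares, no PENK expression in direct nuclei is read from its count. PTPRM, a receptor tyrosine phosphatase, was at 337, 278, 89.9 and 102 CPM against 805, 811, 566 and 647 CPM.

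Some of the 10 lowest genes lie beside indirect pathway genes in gene order. TTC12 was at 5.92, 3.54, 5.71 and 3.01 CPM in direct and 93.3, 81.9, 84.6 and 84 CPM in indirect nuclei, and ANKK1, a kinase gene, at 0.555, 0, 1.9 and 0.803 CPM against 35.1, 17.8, 37.2 and 19 CPM. In the RefSeq annotation of the T2T-MFA8v1.1 assembly, which is not the annotation of the files, TTC12, ANKK1 and DRD2 follow one another. FIG4, a phosphoinositide phosphatase, was at 41.1, 42.1, 59 and 72.7 CPM against 278, 296, 293 and 332 CPM, and AK9, an adenylate kinase, at 14.2, 8.04, 16.9 and 21.3 CPM against 72.7, 98.9, 91.5 and 123 CPM. Those genes lie beside GPR6, a receptor gene of indirect pathway neurons, in the same annotation. Whether reads of one gene were counted for its neighbour was not tested. IMPAD1 is an older symbol of BPNT2, the gene next to PENK in that annotation. IMPAD1 and UNC5D, which completed the 10, had direct to indirect ratios between 0.262 and 0.515.

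**Figure D1:**
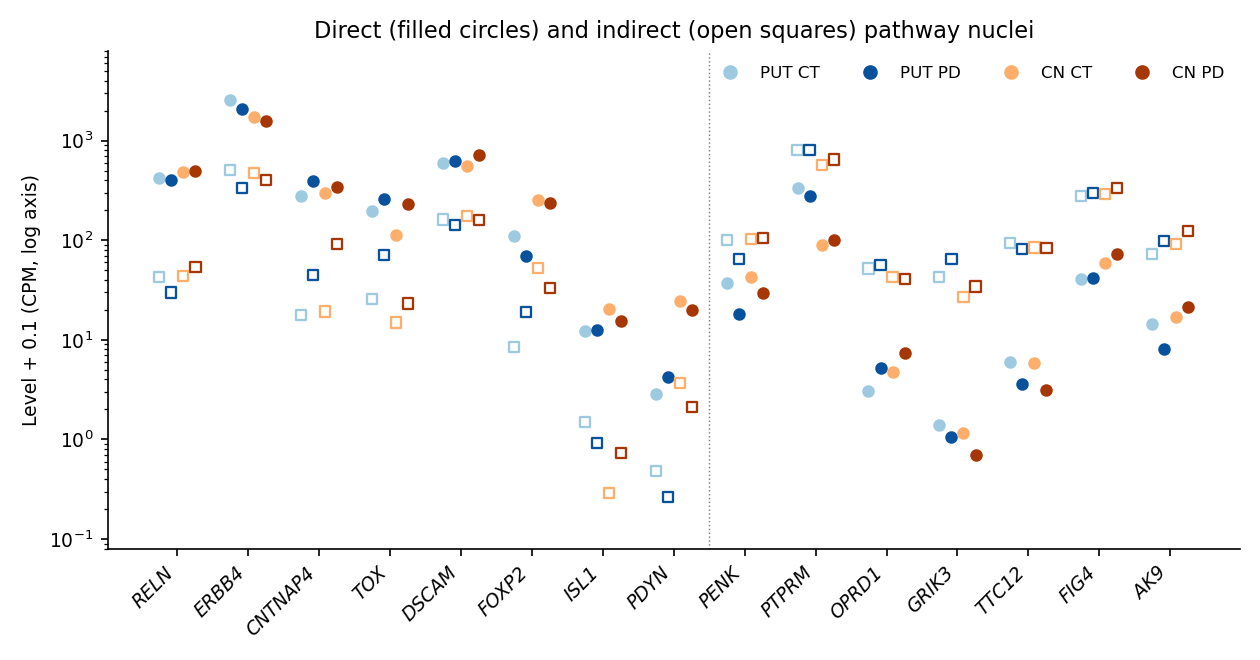
Levels of genes that differed between direct (filled circles) and indirect (open squares) pathway nuclei, in CPM plus 0.1 on a log axis, for each of the 4 libraries by colour. Genes left of the dotted line were higher in direct nuclei of all 4 libraries, as RELN at 405 to 501 CPM, and those right of it were lower, as GRIK3 at 0.602 to 1.30 CPM.

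Direct nuclei made up a smaller share of the divided SPNs in both PD libraries. Of direct and indirect nuclei together, direct nuclei were 39.2% (37.2 to 41.2) in PUT CT and 32.9% (30.7 to 35.2) in PUT PD, a ratio of 0.840 (0.755 to 0.933). In CN they were 47.0% (44.8 to 49.3) in CT and 38.3% (36.1 to 40.5) in PD, a ratio of 0.813 (0.737 to 0.898). Of all nuclei with 10 or more PDE10A UMIs they were 19.9% in PUT CT, 17.0% in PUT PD, 19.5% in CN CT and 16.9% in CN PD. Barcodes with UMIs of both marker sets numbered 739, 329, 427 and 355, and barcodes with neither 586, 567, 1020 and 988, so that a large part of the SPNs was undivided.

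The lower share of PUT PD depended on the marker rule, while the share of CN PD was lower under both rules. With EBF1 alone as the direct marker, an alternative chosen after seeing the data, the PUT shares were 34.7% in CT and 34.0% in PD, a ratio of 0.981 (0.888 to 1.08). That alternative also took any EBF1 UMI as enough and set no limit on TAC1 in indirect nuclei, so TAC1 was not the only change. The CN shares were then 44.5% and 33.4%, a ratio of 0.750 (0.678 to 0.829). A TAC1 UMI was present in 15.1% of oligodendrocyte-type barcodes of PUT CT, 7.53% of PUT PD, 24.3% of CN CT and 9.33% of CN PD, which had median depths of 1981.5, 1818, 2599 and 2303 UMIs. An EBF1 UMI was present in 0% to 2.28% of them. These barcodes numbered 458, 438, 37 and 225 in the same order, so the CN CT shares rest on few barcodes. In each region the share with a TAC1 UMI was higher in the CT than in the PD library. Whether these UMIs were free RNA or came from doublets, and their part in the direct share, was not tested. After thinning every barcode to 2000 UMIs, the ratio was 0.835 (0.682 to 1.02) in PUT, from 237 CT and 170 PD direct nuclei, and 0.653 (0.483 to 0.880) in CN, from 124 and 73. Fewer direct nuclei and fewer TAC1 or EBF1 molecules per nucleus cannot be told apart by this rule.

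**Figure D2:**
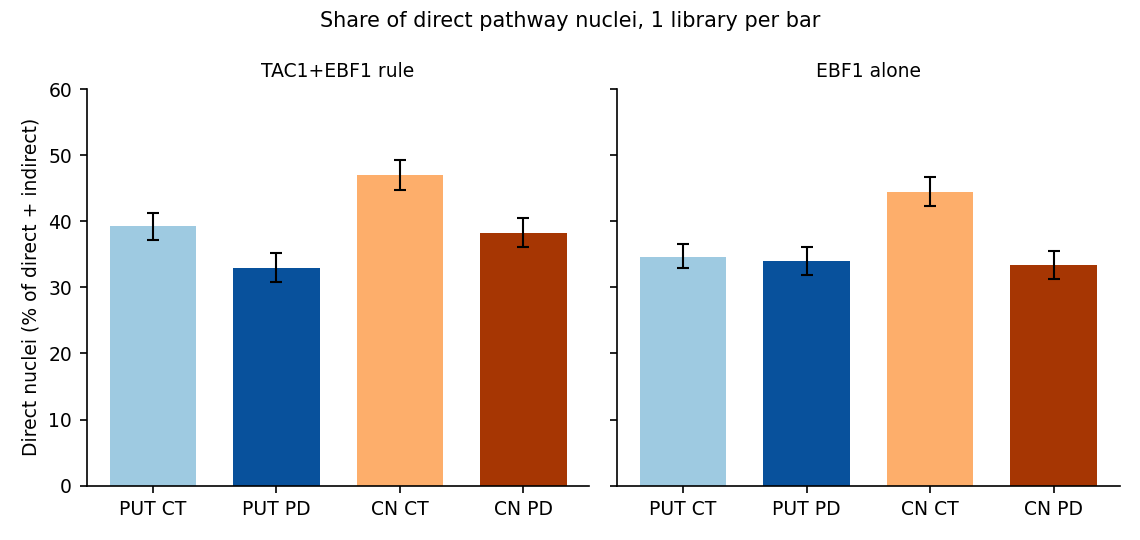
Direct pathway nuclei as a percentage of direct plus indirect pathway nuclei in each library, by the TAC1 and EBF1 rule (left) and by EBF1 alone (right), with exact 95% binomial intervals for counting error. In PUT the CT and PD bars differ on the left, at 39.2% and 32.9%, and lie at 34.7% and 34.0% on the right. In CN the PD bar is the lower one on both sides.

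Within direct nuclei, more genes were lower than higher in the PD libraries. Among 8126 PUT genes with 100 or more UMIs over both libraries, 235 (2.89%) were at least 1.5-fold higher in PD and 598 (7.36%) at least 1.5-fold lower. Among 8463 CN genes, 254 (3%) were higher and 745 (8.8%) lower. Of 7919 genes compared in both regions, 79 (0.998%) were higher in both, which is 36.4% of the PUT and 40.7% of the CN genes past that fold. Another 251 (3.17%) were lower in both, or 44.7% and 38.3%. The median log2 ratio of all genes was -0.05 in PUT and -0.10 in CN, and 57.1% of PUT genes and 63.1% of CN genes were lower in PD by any amount. When ratios were centred on that median, 289 genes were higher and 485 lower in PUT, and 355 higher and 507 lower in CN. Across the 7919 genes the log2 ratios of PUT and CN had a Pearson correlation of 0.604 and a Spearman correlation of 0.478, as a description over genes, which are not replicates. In indirect nuclei of the same libraries, 3.3% of genes were higher and 7.18% lower in PUT, and 2.8% and 10.1% in CN. The regions share no library, and whether they share animals is not given.

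The genes furthest up in both PD libraries were near 0 in CT. ABO, the blood group glycosyltransferase, was at 1.11 CPM in PUT CT, 68.5 in PUT PD, 1.06 in CN CT and 51.6 in CN PD. The PD to CT ratio was 61.7 (27.9 to 170.0) in PUT and 48.8 (20.6 to 152) in CN. NKD2, which dampens Wnt signalling, was at 1.67 CPM in PUT CT, 44.1 in PUT PD, 4.86 in CN CT and 44.6 in CN PD. SP100, a nuclear body protein, was at 6.48 CPM in PUT CT, 80.7 in PUT PD, 11.2 in CN CT and 87.5 in CN PD. The PD libraries of both regions were far above the CT libraries for each of these genes, and the indirect nuclei had the same pattern, with ABO at 1.02, 64.1, 0 and 49.9 CPM there.

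The next genes had varied roles. ACBD7, an acyl-CoA binding protein, was at 3.89 CPM in PUT CT, 32.5 in PUT PD, 1.69 in CN CT and 25.9 in CN PD. SLC25A21, a mitochondrial carrier of oxodicarboxylates, was at 7.77 CPM in PUT CT, 41.2 in PUT PD, 10.6 in CN CT and 57.8 in CN PD, with ratios of 5.29 (3.71 to 7.69) and 5.47 (4.04 to 7.54). MOV10L1, an RNA helicase of the piRNA pathway, was at 21.7 CPM in PUT CT, 79.1 in PUT PD, 16.9 in CN CT and 50.4 in CN PD. All of them were higher in both PD libraries than in either CT library. C12orf42 and ATP6AP1L completed the 8 genes highest in both regions, with ratios of 6.59 and 5.31 and 4.23 and 4.55. DPP10, an auxiliary subunit of Kv4 potassium channels, was at 67.9 CPM in PUT CT, 256 in PUT PD, 345 in CN CT and 704 in CN PD. Its ratio was 3.76 (3.32 to 4.27) in PUT and 2.04 (1.92 to 2.16) in CN, and its CN CT level was above its PUT PD level. In CN, LAMA2 at 4.65 and 34.1 CPM, IGDCC3 at 3.17 and 23.5 CPM and PRSS12 at 8.88 and 49.8 CPM in CT and PD were also among the highest.

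Among the genes lowest in PD, EPB41L4A, of the band 4.1 family that links membrane and cytoskeleton, was at 117 CPM in PUT CT, 24.1 in PUT PD, 142 in CN CT and 26.3 in CN PD, with ratios of 0.205 (0.16 to 0.261) in PUT and 0.185 (0.152 to 0.223) in CN. PIP5K1B, which makes the membrane lipid PIP2, was at 86.4 CPM in PUT CT, 18.3 in PUT PD, 81.6 in CN CT and 16.5 in CN PD. CDH23, a cadherin known from hair cells of the inner ear, was at 102 CPM in PUT CT, 14.2 in PUT PD, 46.5 in CN CT and 9.63 in CN PD. These genes were higher in both CT libraries than in either PD library, by about the same fold in each region for EPB41L4A and PIP5K1B. PIEZO2, a mechanically gated channel, was at 30.9, 5.15, 32.8 and 4.21 CPM in the same order. NELL1, a secreted glycoprotein, was at 56.3, 15.1, 142 and 43.1 CPM, so that its CN PD level was close to its PUT CT level. PIWIL1 (0.197 and 0.238), SPATA21 (0.188 and 0.112) and MS4A5 (0.225 and 0.153) were the other genes lowest in both, with the PUT ratio given before the CN ratio. In PUT, NPFFR2 (a neuropeptide FF receptor), EVC (a ciliary hedgehog protein) and C4H6orf201 were also among the 8 lowest, with ratios of 0.141 (0.0804 to 0.231), 0.0972 (0.0412 to 0.197) and 0.106 (0.0381 to 0.24). In CN, BST1, an NAD-consuming ectoenzyme whose locus is linked to Parkinson's disease, was at 29.6 CPM in CT and 4.01 CPM in PD.

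**Figure D3:**
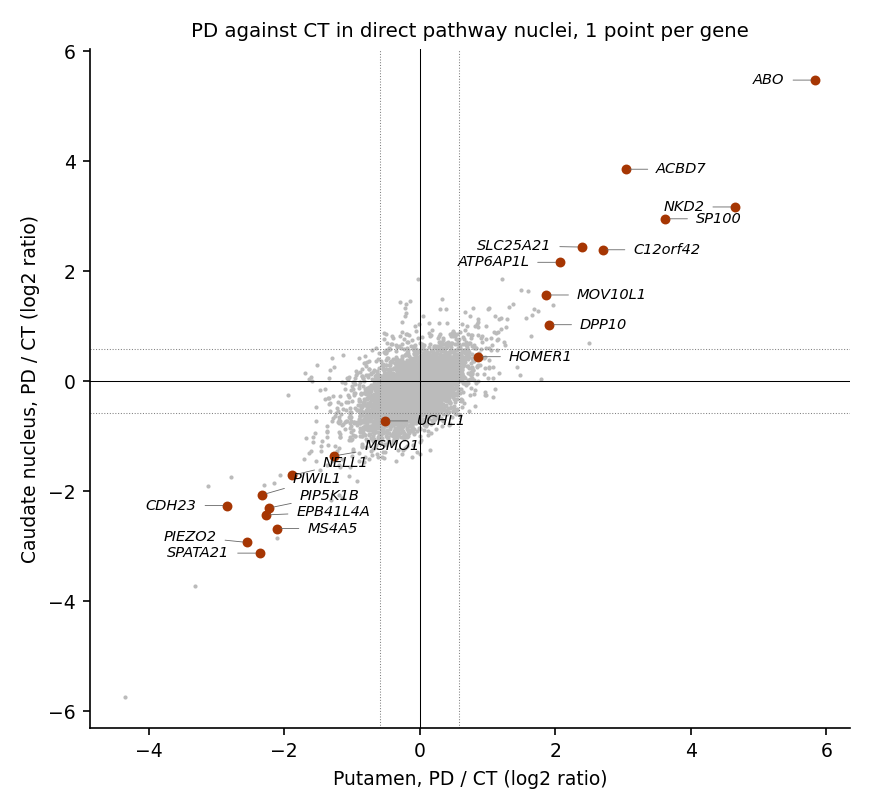
PD against CT log2 ratios of 7919 genes in direct pathway nuclei, putamen on the x axis and caudate nucleus on the y axis, with 0.5 UMI added to each count. Dotted lines mark 1.5-fold, and the lowest grey points are genes without a symbol. Labelled genes lie in the same direction in both regions, from ABO at the upper right to SPATA21 at the lower left.

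Cholesterol synthesis genes were lower in direct nuclei of both PD libraries. Of 14 listed genes measured in PUT, 13 were lower in PD, 8 of them by 1.5-fold or more, against 7.36% of all genes, and the median log2 ratio was -0.66. In CN all 14 measured genes were lower, 11 of them by 1.5-fold or more, against 8.8% of all genes, with a median of -0.79. MSMO1, which demethylates sterols, was at 50.7 CPM in PUT CT, 20.9 in PUT PD, 48 in CN CT and 18.7 in CN PD, with ratios of 0.412 (0.309 to 0.542) and 0.389 (0.302 to 0.497). HMGCS1, a synthase of the mevalonate pathway, was at 27.2 CPM in PUT CT, 15.1 in PUT PD, 46.3 in CN CT and 25.1 in CN PD, with ratios of 0.555 (0.391 to 0.776) and 0.542 (0.431 to 0.678). Both enzymes were lower in the PD than in the CT library of each region.

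Other steps of the pathway were lower too. CYP51A1, a sterol demethylase, had ratios of 0.687 (0.539 to 0.869) in PUT and 0.522 (0.419 to 0.647) in CN, and SQLE, the squalene epoxidase, 0.746 (0.588 to 0.94) and 0.572 (0.464 to 0.703). STARD4, a sterol carrier, had 0.579 (0.412 to 0.803) and 0.469 (0.358 to 0.611). The regulator SREBF2 had 0.799 (0.703 to 0.906) and 0.927 (0.822 to 1.04), and LSS was the exception in PUT at 1.14 (0.816 to 1.58). Indirect nuclei of the same libraries had list medians of -0.65 in PUT and -0.61 in CN, side by side with the direct values. The oligodendrocyte marker sum was 772 CPM in PUT CT and 567 in PUT PD, and 245 in CN CT and 345 in CN PD, and its part in these differences was not tested.

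**Figure D4:**
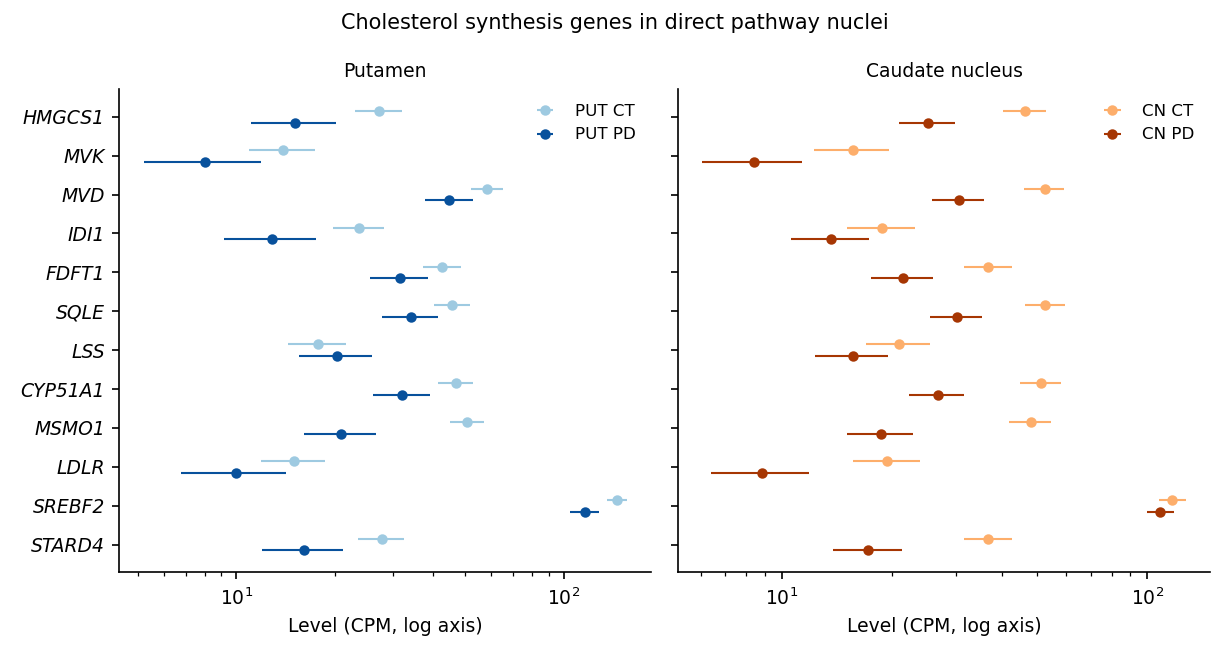
Levels of 12 of the 14 measured cholesterol synthesis genes in direct pathway nuclei of the putamen (left) and caudate nucleus (right), in CPM on a log axis, with exact 95% Poisson intervals. PD points lie left of CT points for every gene shown but LSS in the putamen, where PD is at 20.3 and CT at 17.8 CPM.

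Respiratory and chaperone genes are given beside all genes, of which 57.1% were lower in PUT PD and 63.1% in CN PD, and 7.36% and 8.8% lower past 1.5-fold. Of 16 nuclear-encoded respiratory chain genes in PUT, 13 were lower, 2 of them by 1.5-fold, with a median log2 ratio of -0.26; in CN 10 of 15 were lower, 2 by 1.5-fold, with a median of -0.26. ATP5MC3, a subunit of the ATP synthase, had ratios of 0.617 (0.425 to 0.881) and 0.685 (0.506 to 0.926), and CYC1, cytochrome c1, 0.897 (0.617 to 1.29) and 0.571 (0.413 to 0.784). Of 13 chaperone and unfolded protein genes, 10 were lower in PUT (median -0.15) and 12 in CN (median -0.33), 1 by 1.5-fold in each region. That gene was ATF4, a transcription factor of the integrated stress response, with ratios of 0.638 (0.402 to 0.987) and 0.593 (0.389 to 0.894). HSP90AA1, a major cytosolic chaperone, had 0.841 (0.746 to 0.948) and 0.782 (0.702 to 0.871).

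Mitochondrially encoded genes had different medians in the regions, and that difference was not tested. In PUT all 4 measured genes were lower in PD (median -0.92), with COX2 at 25.5 CPM in CT and 12.2 CPM in PD. In CN 3 of 5 measured genes were higher (median 0.07), with COX2 at 29.4 and 30.9 CPM. Mitochondrial RNA was at most 0.0165% of the UMIs of direct nuclei in any library, and the part of RNA quality in this difference was not tested.

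Of 19 measured Parkinson's disease genes, 15 were lower in PUT PD (median -0.18) and 10 in CN PD (median -0.13). Past 1.5-fold were BST1 and TMEM175 in PUT and BST1 and UCHL1 in CN, all lower in PD. Over all genes 57.1% were lower in PUT and 63.1% in CN, and 7.36% and 8.8% past 1.5-fold, so the CN count was no higher than the background. UCHL1, a neuronal ubiquitin hydrolase, was at 152 CPM in PUT CT, 107 in PUT PD, 209 in CN CT and 127 in CN PD, with ratios of 0.703 (0.617 to 0.799) and 0.607 (0.548 to 0.671). LRRK2, a kinase gene strongly expressed in SPNs, was at 139.8 CPM in PUT CT, 178 in PUT PD, 111 in CN CT and 130.1 in CN PD, with ratios of 1.27 (1.14 to 1.42) and 1.17 (1.04 to 1.31). UCHL1 was thus lower and LRRK2 slightly higher in PD of both regions. TMEM175, a lysosomal ion channel, had ratios of 0.611 (0.486 to 0.763) and 0.695 (0.573 to 0.84), and GAK, a clathrin uncoating kinase, 1.5 (1.24 to 1.82) and 1.18 (0.971 to 1.44).

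Genes that make, read or remove poly(ADP-ribose), the polymer given to the PD animals, had list medians of 0.00 in PUT (18 genes) and -0.08 in CN (20 genes). In PUT 1 gene was past 1.5-fold, lower in PD, and in CN 2 were higher and 3 lower. Among all genes compared, 2.89% were higher and 7.36% lower past 1.5-fold in PUT, and 3% and 8.8% in CN. PARP1, the main nuclear polymerase, was at 46.8 CPM in PUT CT, 42.8 in PUT PD, 38.7 in CN CT and 34.3 in CN PD, with ratios of 0.913 (0.735 to 1.13) and 0.887 (0.716 to 1.1). PARG, which degrades the polymer, was at 152 CPM in PUT CT, 143 in PUT PD, 151 in CN CT and 143 in CN PD, with ratios of 0.938 (0.834 to 1.05) and 0.946 (0.852 to 1.05). The intervals of both genes include 1 in each region. PARP8 was at 8.52 CPM in PUT CT, 16.4 in PUT PD, 10.6 in CN CT and 28.3 in CN PD, with ratios of 1.93 (1.27 to 2.94) and 2.68 (1.93 to 3.77), the PUT ratio resting on fewer than 100 UMIs. PARP9 had ratios of 0.589 (0.401 to 0.85) and 0.512 (0.361 to 0.721). NMNAT3, which makes NAD, had 1.5 (1.2 to 1.87) and 1.6 (1.29 to 2.0).

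Genes of dopamine and cyclic AMP signalling, the pathway by which dopamine acts on these neurons, had medians of 0.04 in PUT (29 genes) and -0.05 in CN (30 genes). In PUT 3 genes were past 1.5-fold, PDE4B, PDE4D and RGS4, and in CN 1, PPP1CA, all lower in PD. These counts of 29 and 30 genes lie near the all-gene shares of 7.36% and 8.8% lower. GNAL, the G protein α subunit that couples D1 receptors to adenylyl cyclase, was at 844 CPM in PUT CT, 1012 in PUT PD, 815 in CN CT and 912 in CN PD, with ratios of 1.2 (1.15 to 1.25) and 1.12 (1.07 to 1.17). PPP1R1B, which encodes DARPP-32, was at 259 CPM in PUT CT, 255 in PUT PD, 208 in CN CT and 193 in CN PD, with ratios of 0.985 (0.901 to 1.07) and 0.926 (0.846 to 1.01). PDE1B, a calcium-activated phosphodiesterase, was at 715 CPM in PUT CT, 601 in PUT PD, 697 in CN CT and 529 in CN PD, with ratios of 0.84 (0.795 to 0.888) and 0.759 (0.721 to 0.799). GNAL was slightly higher and PDE1B lower in PD of both regions, and the PPP1R1B intervals include 1. PDE4D was at 189 CPM in PUT CT, 74.3 in PUT PD, 429.7 in CN CT and 450.2 in CN PD, with ratios of 0.392 (0.339 to 0.453) and 1.05 (0.986 to 1.11). PDE4B had ratios of 0.593 (0.535 to 0.656) and 1.28 (1.2 to 1.38). These phosphodiesterases were lower in PD in PUT, and in CN PDE4B was higher.

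Markers shared by both SPN classes were mostly within 1.5-fold. Of 15 measured shared SPN markers, 12 were higher in PUT PD (median 0.17) and 9 in CN PD (median 0.09), with 0 past 1.5-fold in PUT and 1, RASD2, in CN at 1.6 (1.13 to 2.28). Over all genes 42.9% were higher in PUT and 36.9% in CN, and 2.89% and 3% past 1.5-fold. The transcription factors FOXP1, MEIS2 and BCL11B had ratios of 1.13 (1.08 to 1.19), 1.13 (1.08 to 1.17) and 1.2 (1.12 to 1.27) in PUT. In CN they had 1.31 (1.26 to 1.37), 1.28 (1.24 to 1.32) and 1.19 (1.11 to 1.27). PENK counts in direct nuclei had ratios of 0.486 (0.355 to 0.657) and 0.679 (0.545 to 0.844), and the share of oligodendrocyte-type barcodes with a PENK UMI was also lower in PD, at 7.31% against 15.5% in PUT and 11.1% against 18.9% in CN. The CN CT share rests on 37 barcodes. ISL1 had 1.03 (0.673 to 1.55) and 0.744 (0.543 to 1.01).

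Immediate early genes were barely counted. Of 19 annotated genes, 1 in PUT and 2 in CN reached 100 UMIs. HOMER1, a postsynaptic scaffold gene with an activity-induced short form, was at 470.3 CPM in PUT CT, 855 in PUT PD, 431 in CN CT and 587 in CN PD. Its ratio was 1.82 (1.72 to 1.92) in PUT and 1.36 (1.29 to 1.44) in CN, so both PD libraries were above both CT libraries. In indirect nuclei it was at 377, 569, 376 and 562 CPM. Which form was counted is not resolved by these gene counts. FOS, ARC and NPAS4 stayed below 5 CPM in each library.

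Channels, receptors and scaffolds had list medians between -0.13 and 0.12 in both regions, with single genes beyond. Of the potassium channel genes, 17 of 24 in PUT and 17 of 26 in CN were higher in PD, with 2 higher and 1 lower past 1.5-fold in PUT, and 2 and 2 in CN. Over all genes 42.9% and 36.9% were higher, and past 1.5-fold 2.89% were higher and 7.36% lower in PUT, and 3% and 8.8% in CN. KCNIP4, an auxiliary subunit of Kv4 channels, was at 3674 CPM in PUT CT, 5275 in PUT PD, 5445 in CN CT and 6435 in CN PD. KCNH1, an ether-a-go-go channel, was at 776 CPM in PUT CT, 592 in PUT PD, 629.8 in CN CT and 414 in CN PD. KCNIP4 was higher and KCNH1 lower in the PD library of each region. KCNH5 and KCNH7, of the same channel family, were higher past 1.5-fold in PUT, at 1.73 (1.36 to 2.19) and 1.63 (1.37 to 1.94), and KCNH8 in CN, at 1.57 (1.2 to 2.06). KCNH8 was at 174 CPM in a cluster of 189 nuclei led by glial genes, and at 18.2 CPM in the other nuclei. That cluster was nearly all from PUT, with 0 nuclei of CN CT and 1 of CN PD. Another cluster led by glial genes held 68 nuclei of CN CT and 95 of CN PD, and its KCNH8 level is not given here. Oligodendrocyte markers summed to 245 CPM in CN CT and 345 in CN PD, and their part in the KCNH8 ratio was not tested. KCNT2, a sodium-activated channel, was lower in PUT at 0.551 (0.374 to 0.796), and it led the cluster of eccentric SPN-like nuclei described below. KCNC2, a Kv3 channel, had 3.94 (2.55 to 6.3) in CN, where it was at 5.5 CPM in CT and 21.7 CPM in PD.

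Receptor genes past 1.5-fold were few. Among ionotropic glutamate receptors GRIK4 was lower in PUT PD, at 0.395 (0.273 to 0.559), and had 0.762 (0.541 to 1.07) in CN. GRIK1 was lower in PUT PD, short of 1.5-fold, at 0.689 (0.569 to 0.831), and higher in CN PD, at 1.83 (1.53 to 2.2), but most of its UMIs came from 1 cluster of 151 nuclei described below. Without that cluster, an alternative chosen after seeing the data, the ratios were 1.61 (0.998 to 2.59) and 1.34 (0.895 to 2.01). GABRA3, a GABA-A receptor subunit, had 0.316 (0.191 to 0.50) in PUT and 1.03 (0.87 to 1.23) in CN. HTR2C, a serotonin receptor, had 0.345 (0.217 to 0.528) and 1.23 (1.13 to 1.33), and ADRA1A, an adrenergic receptor, 4.53 (3.24 to 6.44) in CN, from 9.09 to 41.1 CPM. DRD3, the dopamine D3 receptor, was at 51.8 CPM in PUT CT, 36.7 in PUT PD, 116 in CN CT and 99.2 in CN PD, with ratios of 0.707 (0.564 to 0.883) and 0.854 (0.755 to 0.966). The difference between the regions in these ratios was not tested.

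Axon guidance genes had medians of -0.08 in PUT (23 genes) and 0.12 in CN (25 genes). In PUT 1 was higher and 2 lower past 1.5-fold, and in CN 2 were higher and 1 lower, near the all-gene shares of 2.89% and 7.36% in PUT and 3% and 8.8% in CN. SLIT2, a repulsive ligand, was at 195 CPM in PUT CT, 309.7 in PUT PD, 302 in CN CT and 429 in CN PD, with ratios of 1.59 (1.45 to 1.73) and 1.42 (1.33 to 1.52). It was higher in PD than in CT of both regions. SEMA3E, a semaphorin, had 0.827 (0.624 to 1.09) in PUT and 1.59 (1.44 to 1.77) in CN, and SEMA5A 0.854 (0.613 to 1.18) and 2.3 (1.62 to 3.31). Interferon response genes were near the limit of counting: 1 of 23 annotated genes reached 100 UMIs in either region. That gene was DDX58, which encodes the RNA sensor RIG-I, at 43.7 CPM in PUT CT, 33.8 in PUT PD, 61.1 in CN CT and 33.5 in CN PD. It was lower in PD of both regions, with ratios of 0.773 (0.608 to 0.977) and 0.548 (0.451 to 0.666). IFI44L, under that limit, was at 1.11 CPM in PUT CT, 5.15 in PUT PD, 0.634 in CN CT and 8.23 in CN PD, with ratios of 4.63 (1.72 to 14.5) and 13 (4.14 to 65.5). Its PD libraries were above its CT libraries in both regions, while IFI6 had 0.31 (0.0935 to 0.814) and 0.345 (0.162 to 0.686). The lists of proteasome, lysosome and synaptic vesicle genes had medians between -0.16 and -0.02 in both regions. In PUT 2 of 23 proteasome genes were lower past 1.5-fold, and 0 of 18 lysosome and 0 of 23 vesicle genes passed it. In CN 0 of 23 proteasome genes passed it, 2 of 18 lysosome genes were lower, and of 26 vesicle genes 1 was higher and 1 lower. Among all genes 2.89% were higher and 7.36% lower past 1.5-fold in PUT, and 3% and 8.8% in CN, so these counts lie near the background.

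Clustering of the 3118 nuclei (Leiden, 9 clusters) separated libraries more than subtypes. The 4 largest clusters, of 598, 477, 615 and 453 nuclei, each took 94.5% to 97.8% of their nuclei from a single library, and cluster sizes were not compared between groups. A pair of clusters was striosome-like by fixed markers of the striosomes, patches of striatum that target dopamine neurons. The first held 153 nuclei, of them 101 from PUT CT and 43 from PUT PD, with 419 CPM of KHDRBS3 and 293 CPM of KCNIP1, and 16.3 CPM of the matrix marker EPHA4. Of its 8 striosome markers only OPRM1 was lower than in the other nuclei, at 65.3 against 135 CPM, and of its 8 matrix markers only RASGRP2 was higher, at 88.2 against 74.5 CPM. The second held 291 nuclei, of them 156 from CN CT and 134 from CN PD, with 117 CPM of BACH2 and 410 CPM of KCNIP1, and 32.8 CPM of EPHA4. There the exceptions were KREMEN1, at 24.4 against 26.6 CPM, and the matrix marker CRYM, at 100.1 against 67.7 CPM. In the 4 largest clusters EPHA4, which guides growth cones in the surrounding matrix, was at 295 to 335 CPM. These values describe the clusters and are not tests, since the same counts made them.

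A further cluster, of 151 nuclei, was eccentric SPN-like by fixed markers of that minor SPN class. It held 35 nuclei of PUT CT, 9 of PUT PD, 55 of CN CT and 52 of CN PD. It had 2178 CPM of ADARB2, 780 CPM of RXFP1 and 1042 CPM of FOXP2, against 26.9, 4.26 and 131 CPM in the other nuclei. CASZ1, OTOF and CACNG5 were also higher than in the other nuclei. Of the 8 fixed markers, PCDH8 was at 0 against 0.35 CPM there, and GRM8 was about level, at 398.5 against 391.3 CPM. The cluster had few EBF1 UMIs (22.1 CPM). TAC1 was at 522 CPM in its nuclei, and ISL1 at 0. Nuclei with few EBF1 UMIs meet the rule through TAC1, so this TAC1 level describes the choice of nuclei. Its summed striosome markers, at 1924 CPM, were above the 1180.1 and 1280.5 CPM of the striosome-like clusters, with TSHZ1 at 464 and SEMA5B at 292 CPM. Without the nuclei of this cluster the ADARB2 ratio went from 0.708 (0.605 to 0.826) to 1.01 (0.748 to 1.36) in PUT. In CN it went from 1.44 (1.3 to 1.6) to 0.730 (0.569 to 0.935). A pair of clusters, of 189 and 191 nuclei, were led by glial genes, with 1182 CPM of MBP in the first and 225 CPM of SLC1A3 in the second, and stayed unnamed. Striosome markers in all direct nuclei had a median log2 ratio of -0.38 in PUT, 6 of 8 lower in PD against 57.1% of all genes, and 0.03 in CN, 4 of 8 lower against 63.1%. KHDRBS3, an RNA-binding protein, was at 192 CPM in PUT CT, 123 in PUT PD, 122 in CN CT and 118 in CN PD, and the matrix markers had medians of -0.08 and -0.20.

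Direct nuclei of CN and PUT differed at a set of genes found in both groups. The libraries of a region differ also as libraries, so region and library cannot be told apart within a group. Of 7662 genes, 203 (2.65%) were at least 1.5-fold higher in CN than in PUT in CT and in PD, and 156 (2.04%) lower. TLL1, an extracellular protease, was at 3.52 CPM in PUT CT, 2.9 in PUT PD, 49.7 in CN CT and 72.9 in CN PD. HTR2C was at 24.2 CPM in PUT CT, 8.36 in PUT PD, 224 in CN CT and 274 in CN PD. Both genes were low in the PUT libraries and high in the CN libraries of CT and PD. GDA, guanine deaminase and a matrix marker, was at 8.88, 3.54, 63.7 and 68.5 CPM, and CDH10, a cadherin, at 8.88, 15.4, 69.6 and 113 CPM. AK5, an adenylate kinase, and ALKAL2, a ligand of the ALK receptor, had CN to PUT ratios of 7.29 (5.8 to 9.25) and 7.29 (5.14 to 10.6) in CT.

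The genes higher in PUT included developmental transcription factors. TESPA1, a signalling adaptor known from thymocytes, was at 117 CPM in PUT CT, 135 in PUT PD, 4.02 in CN CT and 1.41 in CN PD, with CN to PUT ratios of 0.0344 (0.0206 to 0.0542) in CT and 0.0104 (0.00416 to 0.0216) in PD. SOX5, a transcription factor, was at 112 CPM in PUT CT, 140.2 in PUT PD, 20.9 in CN CT and 20.3 in CN PD. GLI3, a hedgehog pathway factor, was at 79, 84.6, 9.3 and 4.42 CPM. SNTG2, a syntrophin, was at 1231, 1284, 202 and 145 CPM, COL25A1, a membrane collagen, at 253, 239.6, 56.3 and 44 CPM and ADGRG7 at 53.3, 31.2, 6.13 and 2.61 CPM. For each of the 6 genes, both PUT libraries were above both CN libraries.

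Receptor and guidance genes were also compared between regions. Of 12 neuromodulator receptor genes measured in CT, 5 were at least 1.5-fold higher in CN (median 0.38), against 4.77% of all genes, and 2 lower, against 4.47%. In PD 8 of 13 were higher (median 0.79), against 5.7% of all genes, and 3 lower, against 6.16%. DRD3 was at 51.8, 36.7, 116 and 99.2 CPM in the same order, and HTR4, a serotonin receptor that raises cyclic AMP, at 139.8, 199, 342 and 410.1 CPM. CNR1 and TACR1, the substance P receptor, were lower in CN, TACR1 at 38, 45, 16.7 and 15.7 CPM. Of the guidance genes, 8 of 26 in CT (median 0.27) and 7 of 23 in PD (median 0.45) were at least 1.5-fold higher in CN, and 2 and 0 lower. SEMA3E was at 30.7, 25.4, 119 and 189.5 CPM and NRP2, a semaphorin coreceptor, at 24.8, 19.6, 83.1 and 90.5 CPM. PDYN, the dynorphin gene, had CN to PUT ratios of 8.84 (5.14 to 16.3) in CT and 4.8 (2.68 to 9.33) in PD, and PDE4D 2.27 (2.1 to 2.45) and 6.06 (5.29 to 6.97). Oligodendrocyte markers were lower in CN, with medians of -1.67 in CT and -0.90 in PD, and their part in these contrasts was not tested.

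**Figure D5:**
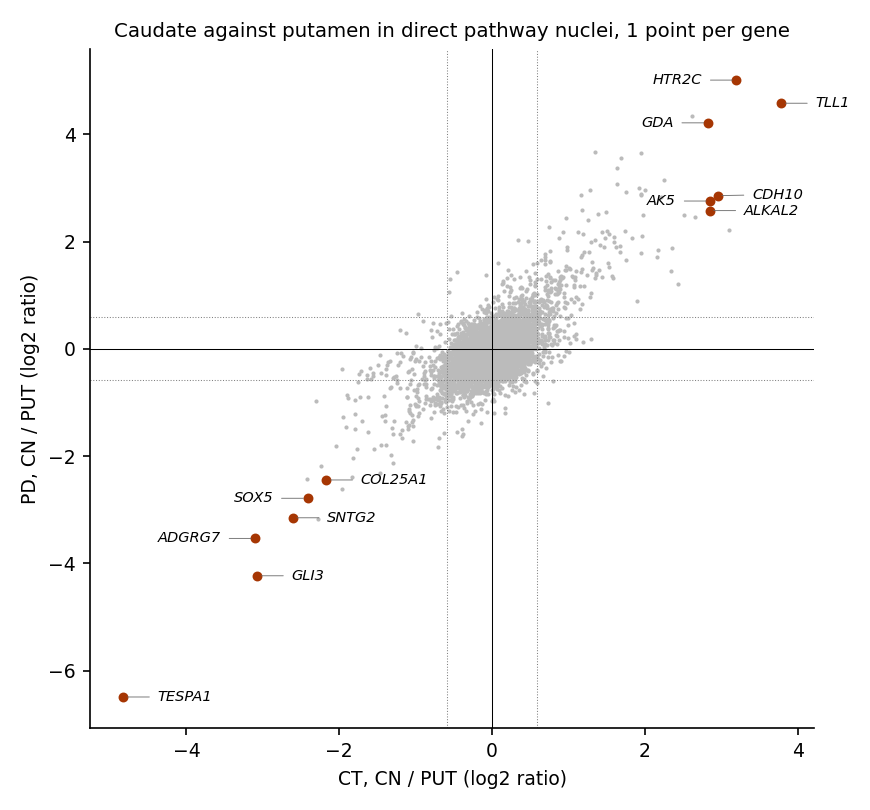
CN against PUT log2 ratios of 7662 genes in direct pathway nuclei, the CT libraries on the x axis and the PD libraries on the y axis, with 0.5 UMI added to each count. Dotted lines mark 1.5-fold. The 12 labelled genes lie in the same quadrant in CT and PD, from TESPA1 at the lower left to HTR2C and TLL1 at the upper right.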

How the data were processed

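Single-nucleus RNA-seq of striatum was analysed (Nuclei PURE Prep, 10x Chromium 3′ v.3, per the labels' protocols). The deposited matrices hold UMI counts per gene and barcode as deposited by the authors, and the submitters' processing notes name Cell Ranger 7.0.1 and hg38, whereas the gene identifiers in the files are those of Macaca fascicularis; the reference used is not resolved here. Of 22316 genes, 16297 have a symbol in the files.

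Members and gene lists were chosen with earlier results of these data known. Counts of the chosen nuclei were summed per library and scaled to CPM. With 1 library per group there was no test. Genes with 100 or more UMIs over both libraries were compared, and 1.5-fold is a size, not a significance call. Ratios are unadjusted, with exact conditional binomial 95% intervals; levels have exact Poisson and shares exact Clopper-Pearson intervals, which cover counting error only. Plotted log2 ratios and list medians add 0.5 UMI. Named genes were those whose interval bound nearest to no change was furthest from it: 8 per direction in each region and over both, 10 for direct against indirect and 6 for CN against PUT. Left out were genes without a symbol, mitochondrial, ribosomal protein and hemoglobin genes, XIST and Y-linked genes, the rule's genes and markers of other cell types. Examples within lists were chosen after their values were seen. Oligodendrocyte-type barcodes held 1000 or more UMIs and 20 or more of 3 oligodendrocyte markers together, MBP and MOBP among them. A few genes are counted in their lists but not reported here by name.

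Clusters came from Scanpy 1.11.5 (2000 variable genes, 30 principal components, 15 neighbours, Leiden resolution 0.6). Scrublet scores were computed with an expected rate of 0.06, and doublets were kept. Python 3.11.15, NumPy 2.4.6, SciPy 1.17.1 and pandas 2.3.3 were used. The steps were tested on simulated data. Alternatives covered depth, markers, doublets, oligodendrocyte-rich barcodes, the eccentric SPN-like cluster, thinning, the minimum count and centring.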

Additional observations from a re-analysis of the deposited data

Results flagged for a closer look

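A potassium channel gene, a receptor gene and a transcription factor gene differed in opposite directions past 1.5-fold in the direct and indirect nuclei of the PUT libraries. These classes come from the same libraries, and the differences between them were not tested. FOXP2 had a PD to CT ratio of 0.6265 in direct nuclei, from 111 to 69.5 CPM, and of 2.247 in indirect nuclei, from 8.44 to 19.0 CPM. KCNT2 had 0.5509 in direct nuclei, from 22.8 to 12.5 CPM, and 1.678 in indirect nuclei, from 16.4 to 27.5 CPM. RXFP1, a relaxin receptor, had 0.5487 in direct nuclei, from 24.6 to 13.5 CPM, and 1.548 in indirect nuclei, from 7.29 to 11.3 CPM. Without the eccentric SPN-like cluster the direct ratio was 0.667 (0.555 to 0.797) for FOXP2 and 1.21 (0.481 to 2.93) for RXFP1. Indirect nuclei were not clustered, so their ratios have no such alternative. A FOXP2 UMI was present in 2.8% of indirect nuclei of PUT CT and 3.99% of PUT PD. For RXFP1 these shares were 1.71% and 2.8%, and whether a small subset carried these UMIs was not tested. KCNT2 was at 548 CPM in that cluster, from 470 UMIs, and at 5.64 CPM in the other direct nuclei. The cluster held 35 nuclei of PUT CT and 9 of PUT PD, and the KCNT2 ratio without it is not given here. Of 636 named or listed genes, 3 differed so between the classes, and 0 moved in opposite directions past 1.5-fold in direct nuclei of PUT and CN.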

How the results depend on the processing

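No paired analysis was possible because each group is 1 matrix with no map from barcodes to samples, and for the same reason no replicate could be left out. The alternatives on EBF1 alone, on oligodendrocyte-rich barcodes and on the eccentric SPN-like cluster were chosen after seeing the data. Of the recomputed values, 74 counts, 786 gene ratios, 470 list medians and 12 shares stayed within their limits. Another 36, 65, 37 and 4 moved, and the cause was not tested. Limits were the main interval for gene ratios and shares, 1.5-fold for counts and a fixed distance for list medians. The gene minimums of 20 and 500 UMIs leave a gene's ratio unchanged, so 93 and 43 of the gene ratios could not move. Centring shifts list medians by less than their limit, so its 51 list medians could not move either. The PD to CT ratio of the direct share moved with EBF1 alone in PUT (0.981), with 5 or more UMIs of TAC1 and EBF1 (0.628 in PUT, 0.521 in CN) and after thinning in CN (0.653). The oligodendrocyte list median in PUT, -0.43, became 0.00184 without oligodendrocyte-rich barcodes. Those barcodes were removed by the same markers, so this change is partly set by the choice and is no test. Counts are given as higher, then lower. With 5 or more UMIs of TAC1 and EBF1 they were 73 and 156 in PUT, 71 and 95 in CN, 14 and 12 in both regions, and 67 and 46 for CN against PUT, from fewer nuclei. Thinned, they were 123 and 250, 122 and 335, 32 and 91, and 118 and 95. With a minimum of 500 UMIs they were 44 and 76, 65 and 104, 19 and 30, and 77 and 54, and 13 and 14 for direct against indirect. With a minimum of 20 they were 778 and 1533, 682 and 1771, 227 and 641, and 418 and 346, and 42 genes were higher in direct nuclei. With 5000 or more UMIs per barcode, 164 genes were lower in both regions. Depth limits genes under 100 UMIs, such as DRD1 and most immediate early and interferon genes.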
